A study of Arabidopsis thaliana with 21 samples.

Results

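RNA levels were compared between wild-type Arabidopsis thaliana seeds imbibed with ethylene for 24 h and seeds imbibed with ethylene for 16 h. Of the 21 RNA-seq libraries of the study, 5 entered the comparison, and they were chosen by their titles. Replicates 1, 2 and 3 made up the 24 h group, and replicates 1 and 3 the 16 h group. A further library carries the label ethylene 16 h replicate 2, but it did not enter the comparison for the reason given below, and its values stand beside the others where they matter. Seeds imbibed in water for 24 h and for 16 h, with 3 libraries each and labelled as untreated, served as a parallel time course. Seeds imbibed for 6 h with ethylene or in water, with 3 libraries each, helped to estimate the spread. Those with ethylene for 6 h also entered a comparison of the preceding interval. The dry seeds were not analysed here. All groups shared the wild-type genotype, the seed as tissue and a long-day growth regime. The labels name no ecotype, no ethylene concentration and no dormancy state of the seed lot, and the tissue label is seed without further dissection.

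A dry seed carries stored messenger RNAs together with storage proteins and oil that were laid down while it matured on the mother plant. Imbibition starts metabolism again, and whether the seed germinates depends on a balance between abscisic acid, which holds dormancy, and gibberellin and ethylene, which favour germination. Ethylene binds receptors that otherwise keep the kinase CTR1 active, and with CTR1 off the transcription factors EIN3 and EIL1 accumulate and switch on response genes. After the root emerges, the seedling burns its oil reserves and builds chloroplasts.

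The library labelled ethylene 16 h replicate 2 stood apart from its group. Over 18806 genes the correlation of its log2 levels with those of the seeds kept in water for 16 h was 0.9937 to 0.9947, and with ethylene 16 h replicates 1 and 3 it was 0.8993 to 0.9044. The points share their gene set and base composition, so these values only describe the profiles. Counts of replicates 1 and 3 differed with a chi-square per degree of freedom of 2.243, and against the library labelled replicate 2 this was 347 and 376.7. The label could not be checked from the files. The coefficient of biological variation that edgeR estimated was 0.187 with this library and 0.0436 without it. The 5 compared libraries held 19667474 to 21176545 gene reads each. Replicates are named biological in the design text, with no word on whether seed lots were separate, and the p-values below therefore cover the spread among these libraries, part of which may be technical. In whole seeds, fewer cells of a type and less RNA per cell cannot be told apart. Transcripts of seed storage proteins were detected in all 5 libraries.

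Between 16 and 24 h with ethylene 68.8% of the genes tested changed. Of 19091 genes tested, 6947 (36.4%) were higher at 24 h and 6196 (32.5%) were lower, at an adjusted p under 0.05 by edgeR's quasi-likelihood test. At least 2-fold higher were 2840 (14.9%), and at least 2-fold lower were 931 (4.88%). The median log2 fold change of all genes tested was 0.03. Among the 13143 called genes, 13017 had no overlap between the 24 h and 16 h libraries, and of all genes tested 78.1% had none. With the library labelled ethylene 16 h replicate 2 kept, 6052 genes were higher and 5700 lower, and 1589 were at least 2-fold lower. Called in the same direction with and without it were 10879 genes, and 6 were called in opposite directions. Among the genes described below, the ethylene changes of PXA1, AT4G10790, AFP1, PYL5, GA20OX1, GA3OX2, GID1B, RGL3, ERS1, ERS2, ETR2, OSR1, HLS1, ARGOS, ACO1, EXPA1, EXPA8, EXPA10, XTH33, RNR2A, SUC2, PLT2, HRE1, TT4, ANNAT1, ChiC and ATOBGM lost their calls with it, and CYCB1;4 then fell below the filter on low counts.

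In water the same 8 h brought fewer and smaller changes. There 4622 genes (24.2%) were higher and 4445 (23.3%) lower at 24 h, of which 1751 (9.17%) and 139 (0.728%) passed 2-fold. The difference between both changes, tested in the same fit, was more positive with ethylene for 3884 genes (20.3%) and more negative for 3928 (20.6%). At least 2-fold more positive were 621 (3.25%), and at least 2-fold more negative were 886 (4.64%). With the library labelled ethylene 16 h replicate 2 kept, the difference was more positive for 2197 genes and more negative for 2664. The ethylene and water changes share no library. Of the genes higher at 24 h with ethylene, 3374 (48.6%) were also higher in water, 342 (4.92%) were lower in water, and 3231 were not called there. Of the genes lower at 24 h with ethylene, 3049 (49.2%) were also lower in water, and 512 (8.26%) were higher in water. The preceding interval with ethylene, 16 h against 6 h, had 8215 genes higher (43%) and 7351 lower (38.5%), of which 4954 (25.9%) and 2963 (15.5%) passed 2-fold.

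Genes were grouped into 34 lists by pathway, hormone, reserve or tissue, with 534 memberships, of which 463 passed the filter on low counts and were tested. In 23 lists more tested members were called higher than lower at 24 h with ethylene, in 9 more were lower, and in 2 the numbers were equal. A median below -2 was found for late embryogenesis abundant proteins, storage proteins and oil bodies. The highest medians were those of vascular cell genes, mitosis genes and the low-oxygen genes, apart from the seed coat list with its 2 tested members. Fitted folds of members without a read in 1 group depend on the prior count. Medians were also taken with such members at their bound and members with at most 3 reads in each group left out. No list median then moved by more than 0.385 with ethylene or 1.29 in water, and 0 changed sign.

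**Figure D1:**
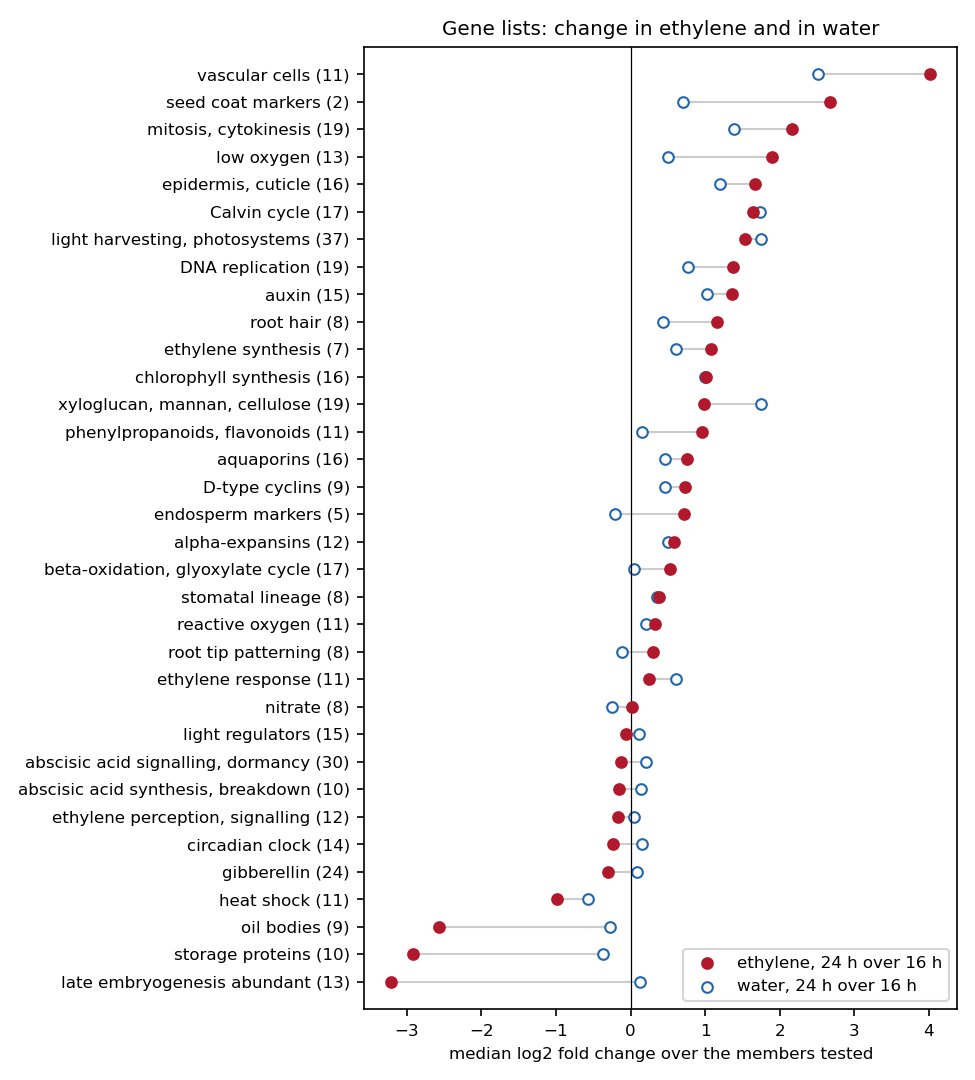
Median log2 fold change of each gene list from 16 to 24 h with ethylene (filled red) and in water (open blue), with the number of tested members in parentheses. The 3 lists of seed reserves and late embryogenesis lie at -2.57 to -3.21 with ethylene and at -0.36 to 0.12 in water. The light harvesting list lies at 1.54 with ethylene and 1.75 in water. Without water 24 h replicate 3 its medians were 1.68 and 1.36.

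Transcripts of the seed's own maturation programme fell. All 10 tested storage protein genes were lower at 24 h than at 16 h with ethylene, by a median of -2.92 on the log2 scale. The cruciferin gene CRA1 (AT5G44120), which encodes a 12S globulin, was at 374, 448 and 574 CPM (counts scaled to a common number of gene reads) with ethylene at 24 h, against 5074 and 4352 CPM with ethylene at 16 h. No 24 h library reached the level of a 16 h library. CRA1 fell by 3.34 ± 0.11 on the log2 scale (± SE, edgeR adjusted p = 1.34e-20). The library labelled replicate 2 had 57576 CPM. In water CRA1 was at 78859, 76736 and 84921 CPM at 24 h, against 51922, 57766 and 64443 CPM at 16 h, so all water libraries at 24 h lay above those at 16 h. The other cruciferin genes CRB and CRC had log2 changes of -3.31 and -3.14 with ethylene, and -0.49 and 0.37 in water. PAP85, a vicilin-like protein gene, had 47.8, 56.8 and 59.5 CPM with ethylene at 24 h, against 619.9 and 514 CPM at 16 h. The 2S albumin genes SESA1 to SESA5 had log2 changes of -2.104, -2.05, -3.29, -2.26 and -2.71. SESA1 to SESA4 are similar copies, and their counts are uncertain wherever reads matched more than 1 of them.

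Summed over the list, storage protein transcripts were at 774, 889.5 and 1133 CPM with ethylene at 24 h, against 9470 and 8047 CPM with ethylene at 16 h. Water libraries held 117623 to 129536 CPM at 24 h, against 85878 to 107993 CPM at 16 h. The library labelled ethylene 16 h replicate 2 held 95585 CPM. For all 10 genes the change with ethylene was more negative than the change in water. All 10 were also lower when that library was kept.

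Oil body genes moved the same way, with 7 of 9 tested members lower at 24 h and 0 higher (median -2.57), against 6 lower and 1 higher in water (median -0.27). Oleosins coat the oil bodies and keep them apart. OLEO1 (AT4G25140) was at 16.6, 16.9 and 20.15 CPM with ethylene at 24 h, against 218 and 181 CPM at 16 h, a log2 change of -3.48 ± 0.09 (edgeR adjusted p = 2.53e-22). Its groups lay far apart, and in water OLEO1 was at 3107, 2805 and 3121 CPM at 24 h, against 3465, 3809 and 4346 CPM at 16 h. OLEO2, OLEO4, the caleosin gene ATS1 and its relative ATPXG2 fell by 2.96, 2.53, 3.04 and 3.14 on the log2 scale. SDP1, the lipase that opens oil body triacylglycerol, was at 159.7, 163 and 154 CPM at 24 h, against 167 and 163 CPM at 16 h, and did not pass the test (edgeR adjusted p = 0.345). AT4G10790, listed as PUX10, the adaptor that takes oleosins to degradation, fell by 0.13. OLEO3 did not pass the test either, with a log2 change of -0.18.

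All 13 tested genes of late embryogenesis abundant and related desiccation proteins fell, by a median of -3.21, while in water 6 rose, 3 fell and the median was 0.12. These proteins protect dry cells. EM6 (AT2G40170) was at 7.89, 4.29 and 3.84 CPM with ethylene at 24 h, against 50.3 and 38.8 CPM with ethylene at 16 h. Replicate 1 was the highest at 24 h and still lay below both 16 h libraries. EM6 fell by 3.05 ± 0.16 on the log2 scale (edgeR adjusted p = 1.32e-15), and stood at 2549, 2237 and 2505 CPM in water at 24 h. The largest decrease of the list was that of M10, a late embryogenesis abundant protein gene, at 12.1, 12.8 and 16.2 CPM at 24 h, against 190.2 and 176 CPM at 16 h, with a log2 change of -3.74. ECP31, ECP63, EM1 and LEA18 changed by -3.49, -3.42, -3.42 and -3.32. RAB18, a dehydrin that abscisic acid induces, fell by 2.65 with ethylene and rose by 0.31 in water. LEA7 had the smallest decrease of the list, -0.44. The peroxiredoxin gene PER1 fell by 2.53. Summed transcripts of this list were at 117 to 144 CPM with ethylene at 24 h, against 903 to 1041 CPM at 16 h, and at 21034 to 22281 CPM in water at 24 h. For all 13 members the ethylene change was more negative than the water change.

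**Figure D2:**
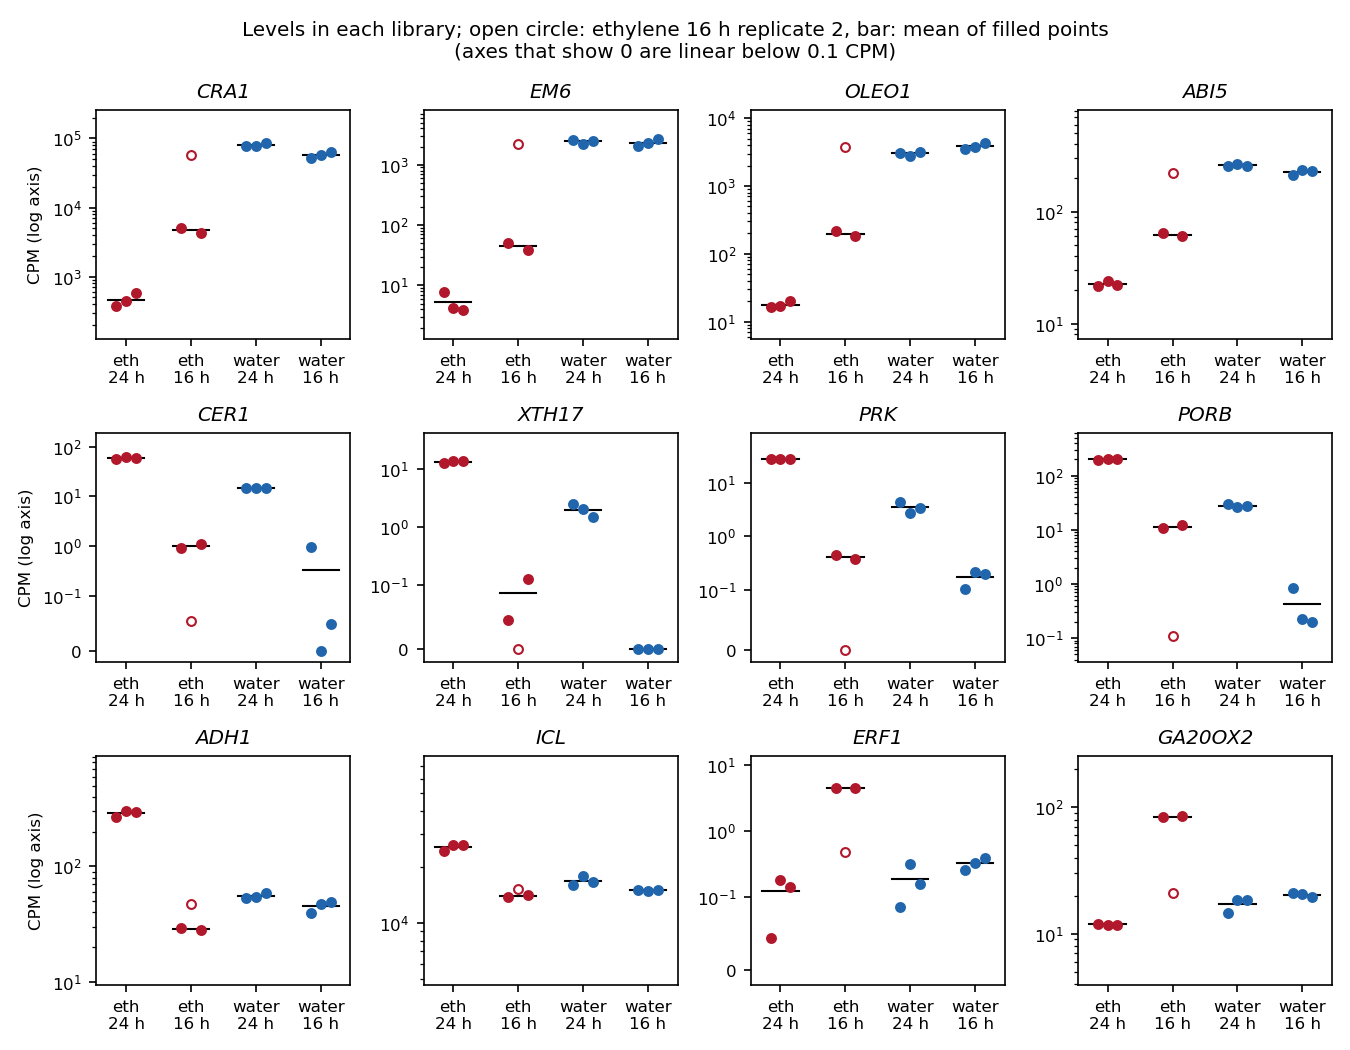
Level of 12 genes in each library in CPM on log axes (linear below 0.1 CPM where an axis shows 0), with ethylene in red and water in blue, and the library labelled ethylene 16 h replicate 2 as an open circle. The bar is the mean of the filled points. For CRA1, EM6, OLEO1 and ABI5 the filled points of ethylene 24 h lie below those of ethylene 16 h, and the open circle lies at the level of the water 16 h libraries.

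Genes that turn the stored oil into sugar rose. Of 17 tested genes of peroxisomal beta-oxidation, the glyoxylate cycle and gluconeogenesis, 14 were higher at 24 h with ethylene and 1 was lower (median 0.52), against 7 higher and 3 lower in water (median 0.05). ICL (AT3G21720), isocitrate lyase of the glyoxylate cycle, was at 24354, 26132 and 26447 CPM with ethylene at 24 h, against 13846 and 14041 CPM with ethylene at 16 h. Its groups did not overlap, and the log2 change was 0.88 ± 0.05 (edgeR adjusted p = 3.69e-14), 0.71 more than in water. PCK1, the carboxykinase that starts gluconeogenesis, was at 8187, 8660.2 and 8319.8 CPM at 24 h, against 5368 and 5405 CPM at 16 h. PMDH2, a peroxisomal malate dehydrogenase, had the largest change of the list, with 39.2, 38.1 and 35.6 CPM at 24 h and 4.97 and 5.73 CPM at 16 h. The acyl-CoA oxidases ACX3 and ACX4, which open each turn of beta-oxidation, rose by 0.898 and 0.93, the citrate synthase CSY2 by 1.08 and the multifunctional protein MFP2 by 0.596. KAT2, the thiolase of the pathway, rose by 0.45 with ethylene and fell by 0.15 in water.

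MLS, malate synthase and the partner of ICL, stayed without a call at 4876, 5275 and 4945 CPM at 24 h, against 4941 and 4892 CPM at 16 h. PXA1, the transporter that brings fatty acids into the peroxisome, had a log2 change of -0.14, a call that was lost with the library labelled replicate 2, with RLE scaling, with DESeq2, at a threshold of 0.01, without ethylene 16 h replicate 1 and without ethylene 24 h replicate 3. Summed over the list, transcripts were at 49389 to 52395 CPM with ethylene at 24 h, against 32402 and 32688 CPM at 16 h. In water they were at 26589 to 29547 CPM at 24 h, against 25900 to 26745 CPM at 16 h. For 15 of the 17 genes the change with ethylene was more positive than in water, and for 0 more negative.

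Genes of abscisic acid breakdown and signalling changed in both directions. CYP707A1 (AT4G19230), a hydroxylase that inactivates abscisic acid, was at 16.04, 17.38 and 15.9 CPM with ethylene at 24 h, against 0.319 and 0.431 CPM with ethylene at 16 h. The groups were far apart, with a log2 change of 5.42 ± 0.23 (edgeR adjusted p = 6.65e-18) and of 1.996 in water. CYP707A3, another such hydroxylase, rose by 2.77, to 15.7, 15.7 and 13.6 CPM. CYP707A2, the form best known from imbibed seeds, fell by 0.91, at 3.26, 3.73 and 1.75 CPM at 24 h, against 6.34 and 4.74 CPM at 16 h. In synthesis NCED5, a dioxygenase of the rate-limiting step, fell by 2.32, ABA1 fell by 0.47 and ABA3 by 0.34, while ABA2 rose by 1.204. NCED6 and NCED9 did not pass the test, with log2 changes of 0.22 and -0.65. In all, 3 of 10 tested genes of the list rose and 4 fell, shares near the 36.4% and 32.5% of all genes.

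Of 30 tested genes of abscisic acid signalling and dormancy, 13 fell and 7 rose with ethylene (median -0.12), while in water 6 fell and 13 rose (median 0.20). ABI5 (AT2G36270), the transcription factor that arrests growth after germination under abscisic acid, was at 21.7, 24.01 and 22.1 CPM with ethylene at 24 h, against 64.6 and 60.1 CPM at 16 h. Its groups did not overlap, and its log2 change was -1.46 ± 0.06 (edgeR adjusted p = 9.92e-18). In water ABI5 was at 256, 268 and 257 CPM at 24 h, against 212, 234 and 231 CPM at 16 h. ABI3, a regulator of seed maturation, fell by 1.56, to 89.6, 89.2 and 85.2 CPM. AHG1, a phosphatase that DOG1 binds, fell by 2.07, the ABI5-binding protein gene AFP2 by 1.08 and MFT, a dormancy regulator, by 0.64. ABI4 was at 75.97, 78.6 and 75.6 CPM at 24 h, against 78.7 and 79.4 CPM at 16 h, and was not called.

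DOG1, the main dormancy gene, was near the detection limit, with 1 read in all at 24 h, against 8 at 16 h. It was at 0, 0 and 0.0474 CPM at 24 h, against 0.182 and 0.172 CPM at 16 h. The count ratio of 16 h over 24 h was 11.6 with a 95% interval of 1.56 to 515, which covers counting error only. OST1, a kinase that abscisic acid activates, rose by 2.001, and the receptor genes PYL2 and PYL8 rose by 0.83 and 0.58. The receptor gene PYL5 fell by 0.45 and the kinase gene SNRK2.3 by 0.62. AFP1, at 1.41, 1.34 and 0.901 CPM at 24 h, against 0.228 and 0.172 CPM at 16 h, was called higher, but its log2 change was -0.25 with the library labelled ethylene 16 h replicate 2 kept. With that library 4 members of the list rose and 13 fell. For 14 members the ethylene change was more negative than the water change, and for 3 more positive.

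Most gibberellin genes that changed were lower at 24 h. Of 24 tested, 15 fell and 5 rose with ethylene (median -0.31), while in water 7 fell and 11 rose (median 0.09), and for 17 of them the ethylene change was the more negative. GA20OX2 (AT5G51810), an oxidase late in gibberellin synthesis, was at 11.99, 11.8 and 11.8 CPM with ethylene at 24 h, against 83.9 and 84.8 CPM with ethylene at 16 h. All 24 h libraries lay at a fraction of the 16 h level, with a log2 change of -2.83 ± 0.07 (edgeR adjusted p = 8.05e-23). GA20OX3 fell by 1.79, GA20OX1 by 0.53, the early pathway gene GA3 by 0.602 and the inactivating oxidase gene GA2OX2 by 1.95.

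GA3OX2, which makes the bioactive hormone, was at 19.1, 19.7 and 21.9 CPM at 24 h, against 15.004 and 15.2 CPM at 16 h, and rose by 0.42. In water its log2 change was 2.36. Its relative GA3OX1 was at 26.3, 27.2 and 13.9 CPM at 24 h, against 26.1 and 27.6 CPM at 16 h, where replicate 3 alone was low and no call was made (edgeR adjusted p = 0.159). Genes of DELLA proteins, which repress growth, were lower. GAI was at 88.4, 81.2 and 78.1 CPM at 24 h, against 234 and 202 CPM at 16 h, and its call held at an edgeR adjusted p of 1.33e-17. RGA1 fell by 0.997, RGL2 by 0.38 and RGL3 by 0.32, while RGL1 at -0.12 was not called. Of the receptor genes GID1A fell by 0.77, GID1C fell by 0.29 and GID1B rose by 0.66. GASA4, a gibberellin-stimulated peptide gene, was at 84.8, 85.8 and 92.8 CPM at 24 h, against 4.65 and 4.65 CPM at 16 h, and its change was 4.24 with ethylene and 5.98 in water. With the library labelled replicate 2 kept, 11 members fell and 2 rose, and GA3OX2 lost its call (edgeR adjusted p = 0.193).

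The genes that perceive ethylene changed little. Of 12 tested, 7 fell and 1 rose (median -0.16), and none of them passed 2-fold. EIN3, the main transcription factor of the pathway, was at 141, 148 and 140.3 CPM with ethylene at 24 h, against 236 and 235 CPM at 16 h, a log2 change of -0.72 ± 0.05 (edgeR adjusted p = 3.62e-13). Its groups did not overlap. The receptor genes ERS2, ETR1 and ETR2 fell by 0.52, 0.36 and 0.22, and ERS1 rose by 0.42. EIN2, CTR1, EIN4 and EBF2 were not called, and EBF2, with a log2 change of -0.11, was the farthest of them from 0. In water ETR2 and ERS2 rose by 0.41 and 0.39. With the library labelled replicate 2 kept only 3 members fell and 0 rose, ERS1 and ERS2 were no longer called, and the log2 change of ETR2 was 0.31.

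Response genes split into falling and rising members. Of 11 tested, 6 rose and 5 fell with ethylene, and in water 7 rose and 1 fell. ERF1 (AT3G23240), a direct target of EIN3, was at 0.0441, 0.184 and 0.142 CPM with ethylene at 24 h, against 4.51 and 4.57 CPM with ethylene at 16 h. In water it was at 0.0866, 0.321 and 0.159 CPM at 24 h, against 0.261, 0.333 and 0.395 CPM at 16 h, and this range overlapped with that of ethylene at 24 h. ERF1 fell by 5.14 ± 0.29 on the log2 scale (edgeR adjusted p = 6.88e-15). ERF2 and ERF-1, of the same family, fell by 2.22 and 1.996. OSR1, a relative of ARGOS, and HLS1, a gene of the apical hook, fell by 0.695 and 0.39.

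ARGOS, which lowers ethylene sensitivity, was at 39.97, 30.2 and 33.7 CPM at 24 h, against 17.8 and 19.8 CPM at 16 h. It rose by 0.88, a call that was lost with the library labelled replicate 2 (edgeR adjusted p = 0.0780), which had 0.0542 CPM. The repressor genes RAV1, RAV2 and EDF3 rose by 2.56, 2.79 and 1.18. RAV1 was at 6.65, 5.301 and 5.36 CPM with ethylene at 24 h, against 1.14 and 0.818 CPM at 16 h, and at 0.866, 0.535 and 0.531 CPM in water at 24 h, where no water 16 h library had a read. With that library kept, 3 response genes rose and 3 fell. For 8 of the 11 the change with ethylene was more negative than in water, and for 0 more positive.

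ACC oxidases release ethylene from its precursor. ACO1 (AT2G19590), an ACC oxidase gene, was at 894, 998 and 989 CPM with ethylene at 24 h, against 421 and 447 CPM with ethylene at 16 h. No 24 h library overlapped with a 16 h library, and the log2 change was 1.14 ± 0.09 (edgeR adjusted p = 4.06e-12). In water ACO1 was at 30.1, 35.5 and 26.9 CPM at 24 h, against 4.599, 2.33 and 1.68 CPM at 16 h, a log2 change of 3.43, and the difference between both changes was -2.29 (edgeR adjusted p = 2.12e-10). ACO5 and EFE rose by 3.14 and 1.08. ACC synthase genes were barely detected, with ACS6 at 1.23, 0.876 and 0.996 CPM at 24 h, against 1.37 and 1.29 CPM at 16 h, and 6 of the 13 listed genes did not pass the filter. Of the 7 tested, 4 rose and 0 fell. With the library labelled replicate 2 kept 3 rose and 1 fell, and ACO1, at a log2 change of 1.73, was no longer called (edgeR adjusted p = 0.127).

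**Figure D3:**
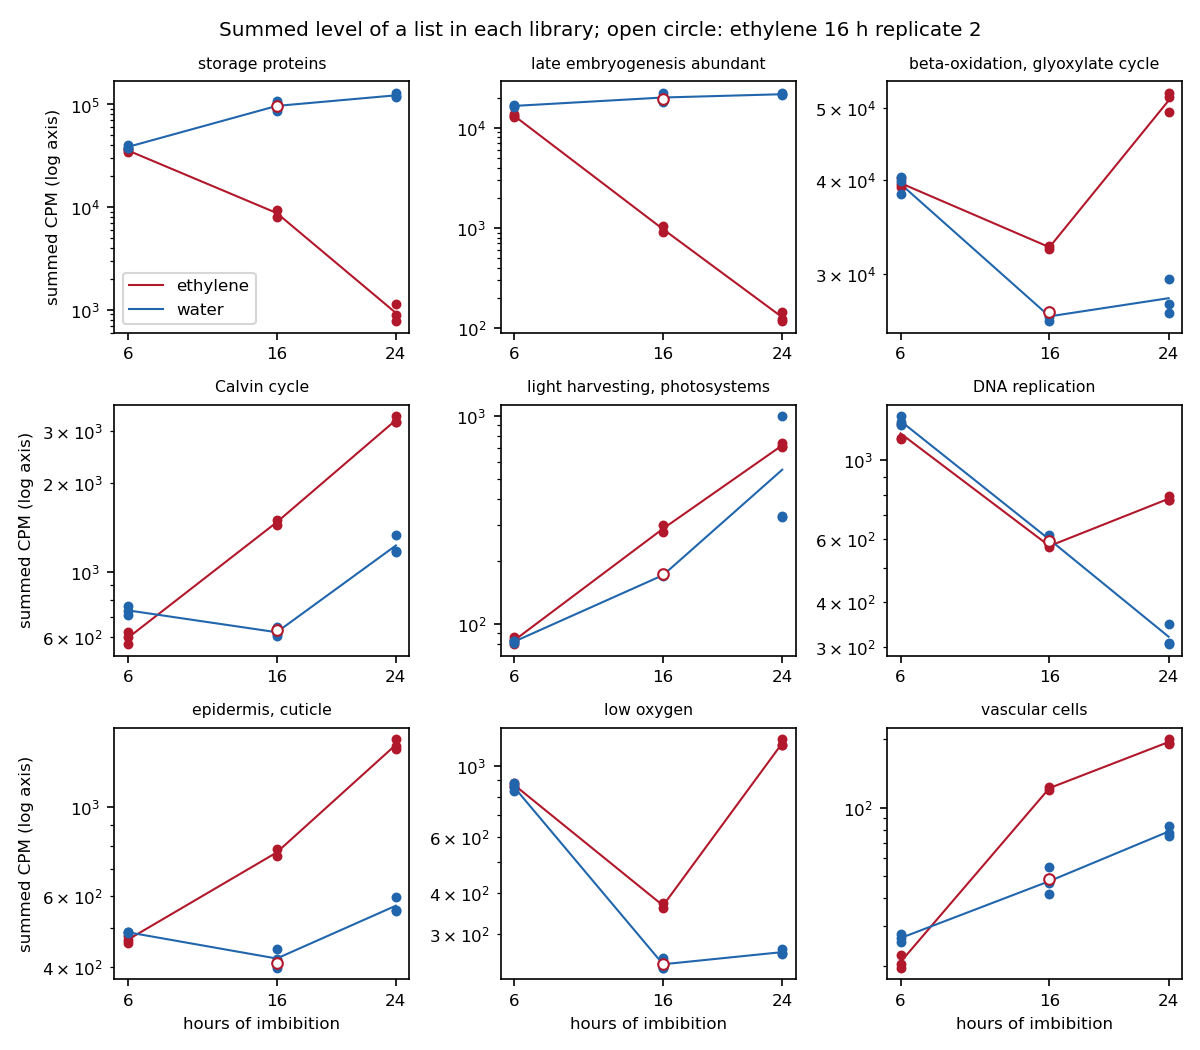
Summed CPM of 9 gene lists (log axes) in each library against hours of imbibition, with lines through the group means, ethylene in red, water in blue and the library labelled ethylene 16 h replicate 2 as an open circle that the line leaves out. Storage protein and late embryogenesis sums fall at each time with ethylene. Sums for low-oxygen, beta-oxidation and DNA replication genes are lower at 16 h than at 6 h with ethylene, and higher again at 24 h. The DNA replication sum departs from its members, of which 16 of 19 were called higher and 3 lower from 6 to 16 h (median 4.03).

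Genes of photosynthesis rose with ethylene and in water. Of 37 tested genes of light harvesting, the photosystems and electron transport, 26 were higher at 24 h with ethylene and 0 lower (median 1.54), and in water 32 were higher and 0 lower (median 1.75). NPQ4, which protects photosystem II from excess light, was at 8.55, 9.31 and 10.5 CPM with ethylene at 24 h, against 0.365 and 0.431 CPM with ethylene at 16 h. Its groups did not overlap, with a log2 change of 4.55 ± 0.25 (edgeR adjusted p = 3.60e-15), and in water it was not called (0.74). LHCB4.1, an antenna protein of photosystem II, was at 72.4, 63.98 and 74.7 CPM at 24 h, against 26.1 and 27.95 CPM at 16 h. ATPC1, a subunit of the chloroplast ATP synthase, was at 125, 112 and 117 CPM at 24 h, against 55.4 and 56.8 CPM at 16 h. PSAD-1 of photosystem I, PSBY of photosystem II and LHCA4, an antenna of photosystem I, rose by 3.298, 2.201 and 2.39.

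Single libraries mattered for the antenna genes. LHCB3 was at 1.89, 2.54 and 3.03 CPM with ethylene at 24 h, against 0.0456 and 0.0431 CPM at 16 h, and LHCB6 at 1.76, 3.09 and 2.18 CPM, against 0.0456 and 0 CPM. The count ratio of 24 h over 16 h was 55.8 (95% interval 15.2 to 465) for LHCB3 and 105 (18.6 to 4193) for LHCB6. In water at 24 h LHCB3 was at 0.346, 0.535 and 48.6 CPM and LHCB1.5 at 0.173, 1.92 and 194 CPM, so that replicate 3 stood alone. Of the 37 members 11 were at least 5-fold higher in that library than in both other water 24 h libraries, and 0 were so in either of the others. Summed over the list, the water 24 h libraries were at 325.6, 330.6 and 998 CPM, and the ethylene 24 h libraries at 708.6, 715 and 743.6 CPM, against 275.9 and 298 CPM with ethylene at 16 h.

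Since all libraries share 1 estimate of the spread, that water library also touches the calls with ethylene. Without it 31 of 35 tested members were higher with ethylene and 0 lower (median 1.68), and 30 were higher in water (median 1.36). LHCB3 then had an edgeR adjusted p of 1.59e-10, against 0.0419 with it, and LHCA3, LHCB5 and LHCB1.5, at log2 changes of 4.27, 2.98 and 3.12 without a call before, were called. With that water library in, the call of LHCB3 was lost whenever ethylene 16 h replicate 1 or 3, or ethylene 24 h replicate 2 or 3, was left out. LHCB1.1 was at 0.0441, 0 and 0.0474 CPM with ethylene at 24 h, against 0 and 0.0431 CPM at 16 h, which is 2 reads in all, against 1. The LHCB1 and LHCB2 genes are near-identical copies whose counts are uncertain. The part of the water library in these results was otherwise not tested.

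**Figure D4:**
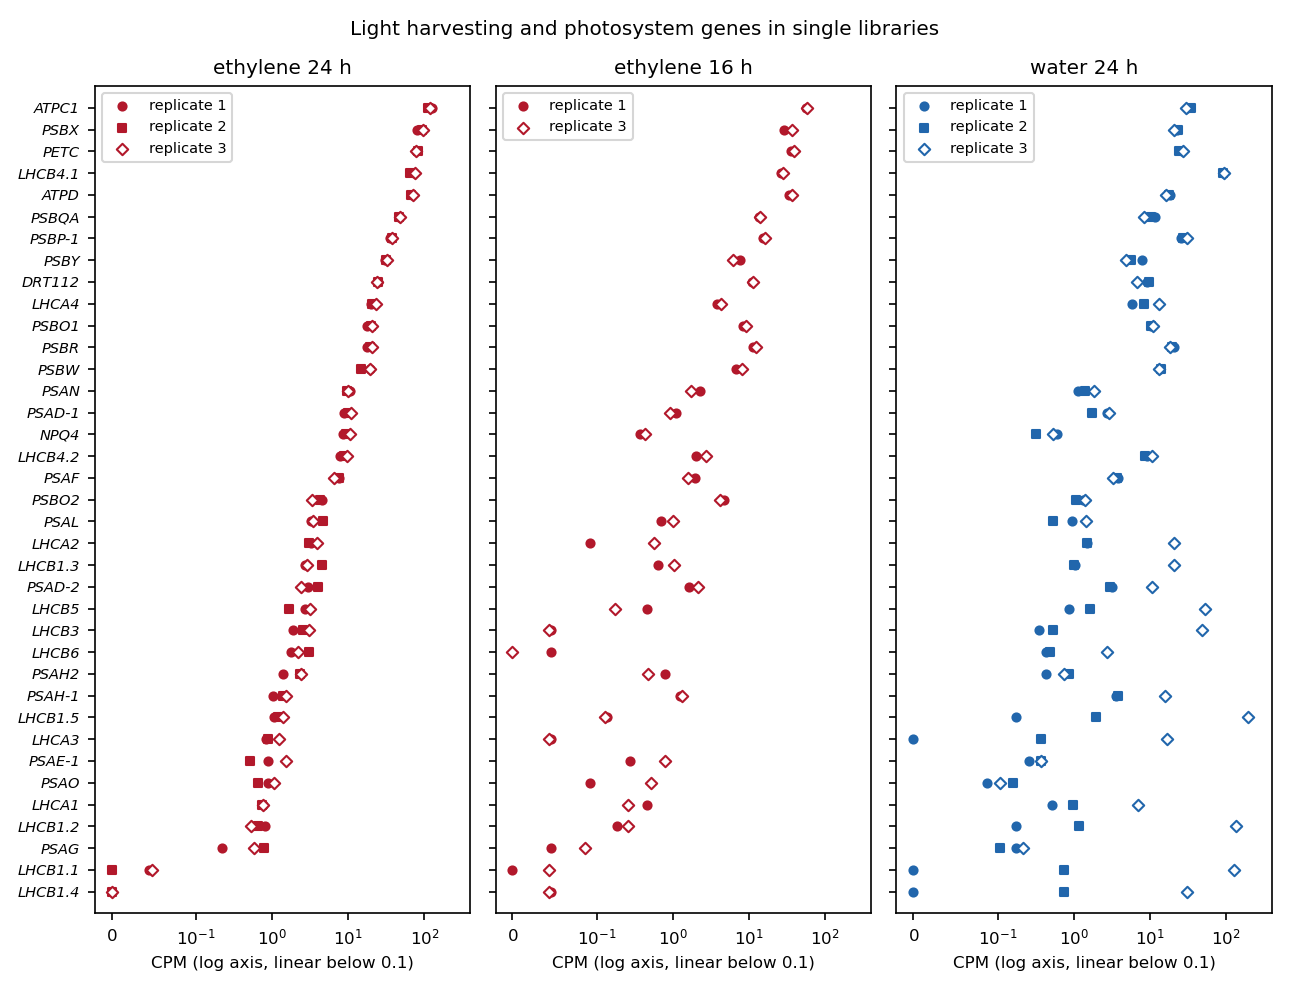
Level in CPM (log axis, linear below 0.1) of the 37 tested light harvesting and photosystem genes in the libraries of ethylene 24 h, ethylene 16 h and water 24 h, ordered by the ethylene 24 h mean. The ethylene replicates of most genes lie together, while in water at 24 h replicate 3 lies at least 5-fold above both others for 11 genes.

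Of 17 tested genes of the Calvin cycle, which fixes carbon dioxide, 15 rose and 2 fell with ethylene (median 1.64). In water 16 rose and 0 fell (median 1.73). Without water 24 h replicate 3 the medians were 1.64 with ethylene and 1.46 in water. PRK (AT1G32060), phosphoribulokinase, was at 26.9, 27.3 and 27.5 CPM with ethylene at 24 h, against 0.456 and 0.388 CPM with ethylene at 16 h. The 24 h libraries were tightly grouped, and the log2 change was 5.99 ± 0.197 (edgeR adjusted p = 3.03e-20). RBCS1A, a small subunit gene of Rubisco, was at 1285, 1292 and 1419 CPM at 24 h, against 596 and 636 CPM at 16 h. FBA2, a chloroplast aldolase gene, rose by 2.16, and RBCS2B and RBCS3B rose by 1.76 and 1.59, against 4.07 and 2.51 in water, with differences of -2.31 and -0.92 that passed the test. FBA1, another aldolase gene, fell by 0.896. CP12-2, a regulator of the cycle, also fell, at 0, 0.23 and 0.0474 CPM at 24 h, against 0.365 and 0.646 CPM at 16 h, a call that was lost without ethylene 16 h replicate 3.

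Chlorophyll synthesis followed, with 15 of 16 genes higher and 1 lower (median 1.02), and in water 15 higher and 0 lower. PORB (AT4G27440), a light-dependent protochlorophyllide reductase, was at 194, 199 and 201 CPM with ethylene at 24 h, against 10.7 and 12.02 CPM with ethylene at 16 h. The groups were far apart (log2 change 4.12 ± 0.08, edgeR adjusted p = 1.03e-24). PORA was at 4.89, 4.75 and 5.03 CPM at 24 h, against 0.0456 and 0.0431 CPM at 16 h, a count ratio of 110.3 with a 95% interval of 30.3 to 915. CHLH, a subunit of the magnesium chelatase, rose by 1.07, CRD1 by 1.398 and HEMA1, the first committed step of tetrapyrrole synthesis, by 0.99. CAO, which makes chlorophyll b, fell by 0.402 with ethylene and rose by 0.44 in water, and without ethylene 16 h replicate 1 no member of the list was called lower.

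Regulators of the light response moved both ways, with 6 of 15 higher and 6 lower, shares near the 36.4% and 32.5% of all genes. HY5, which promotes greening, was at 8.11, 15.3 and 18.16 CPM with ethylene at 24 h, against 1.05 and 1.34 CPM at 16 h. Replicate 1 was the lowest at 24 h and still lay above both 16 h libraries, and HY5 rose by 3.52 ± 0.27 (edgeR adjusted p = 4.84e-12). SOM, which blocks germination in the dark, was at 37.1, 36.04 and 45.1 CPM at 24 h, against 344 and 302 CPM at 16 h, and fell by 3.04. PIF6 fell by 2.23 and PIF1, a repressor of light-dependent germination, by 0.39, while PIF5 and PIF3 rose by 2.33 and 0.51. Among 14 circadian clock genes 7 fell and 4 rose with ethylene (median -0.24), while in water 2 fell and 7 rose (median 0.15). The ethylene change was more negative than the water change for 6 of them and more positive for 0. With ethylene ELF4 and RVE8 fell by 1.74 and 1.42, and GI and PRR7 rose by 1.35 and 0.94. The labels give no clock time of sampling, so duration of treatment and time of day cannot be told apart.

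Most of the tested cell wall genes rose. Alpha-expansins loosen walls as cells grow, and of 12 tested 8 rose and 3 fell (median 0.58). EXPA2 (AT5G05290), which is expressed in the endosperm before the root breaks through, was at 685, 777 and 711 CPM with ethylene at 24 h, against 266 and 276 CPM with ethylene at 16 h. Its groups did not overlap (log2 change 1.42 ± 0.16, edgeR adjusted p = 7.07e-09). EXPA10, EXPA8 and EXPA1 fell by 0.97, 0.73 and 0.56. EXPA1 was at 524, 539.9 and 498 CPM at 24 h, against 753 and 779.8 CPM at 16 h, and 48.7 CPM in the library labelled replicate 2. With that library kept 7 expansins rose and 0 fell, and EXPA1 had an edgeR adjusted p of 0.984. EXPA6, EXPA14 and EXPA4 rose by 3.604, 3.004 and 1.79. Summed over the list the levels were 2720.0 to 2850.1 CPM with ethylene at 24 h, against 2569 and 2626 CPM at 16 h, and 366 to 497 CPM in water at 24 h.

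Of 19 tested genes of xyloglucan and mannan remodelling and of cellulose synthesis, 16 rose and 1 fell with ethylene (median 0.99). In water 16 rose and 1 fell as well (median 1.75). The ethylene change was more positive than the water change for 5 members and more negative for 7. XTH17 (AT1G65310), a xyloglucan endotransglucosylase gene, was at 12.96, 14.1 and 13.8 CPM with ethylene at 24 h, against 0.0456 and 0.129 CPM with ethylene at 16 h. XTH31 was at 886, 971 and 935 CPM at 24 h, against 112 and 118 CPM at 16 h. These groups lay far apart, at log2 changes of 7.16 and 3.02 (edgeR adjusted p = 5.41e-16 and 6.14e-17). XTH18, XTH24 and XTH5 rose by 4.58, 2.36 and 2.29. CESA1, CESA3 and CESA6, which form the cellulose synthase of growing walls, rose by 0.98, 0.92 and 0.88, and in water by 0.46, 0.36 and 0.21. The mannanase gene MAN7 rose by 0.72 with ethylene and fell in water by 0.20. The member called lower was XTH33, at -0.26, and this call was lost with the library labelled replicate 2, with DESeq2, at a threshold of 0.01, and without replicate 1 of either ethylene group.

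Among 16 tested aquaporin genes 10 rose and 4 fell. Of the 21 listed, 5 did not pass the filter, among them TIP2;1, TIP2;2 and TIP2;3. The seed tonoplast forms fell, TIP3;1 by 3.28 and BETA-TIP by 2.55. TIP3;1 was at 7.27, 6.82 and 9.25 CPM with ethylene at 24 h, against 86.3 and 65.1 CPM at 16 h. The tested tonoplast forms of growing tissue rose, with TIP1;1 at 3.53, 3.41 and 4.32 CPM at 24 h, against 0.137 and 0 CPM at 16 h (count ratio 56.3, 95% interval 19.04 to 275). TIP4;1, without a read at 16 h, was at least 10.1-fold higher at 24 h. The plasma membrane forms PIP2;1 and PIP2;2 rose by 3.66 and 3.37.

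Genes of DNA replication rose, 16 of 19 tested (2 fell, median 1.37), against 12 higher and 4 lower in water (median 0.77). PCNA1 (AT1G07370), the sliding clamp of the replication fork, was at 39.2, 41.9 and 46.1 CPM with ethylene at 24 h, against 12.9 and 12.6 CPM with ethylene at 16 h, and its groups did not overlap. It rose by 1.73 ± 0.097 (edgeR adjusted p = 4.27e-15). The licensing genes CDC6 and CDT1A rose by 2.19 and 1.74, the helicase genes MCM2, MCM4 and MCM5 by 1.38, 1.37 and 1.34, and the chromatin assembly genes FAS1 and FAS2 by 1.99 and 2.004. The ribonucleotide reductase genes RNR1 and RNR2A fell by 0.602 and 0.49. TSO2, a small subunit gene of that enzyme, was not called with ethylene, while in water it fell by 1.96. Its levels with ethylene were 93.6, 90.9 and 94.98 CPM at 24 h, against 95.95 and 91.9 CPM at 16 h. Summed levels were 771 to 792 CPM with ethylene at 24 h, against 573 and 577 CPM at 16 h, and 305 to 348 CPM in water at 24 h, against 589.6 to 616 CPM in water at 16 h. In water the list's median and its sum thus moved in opposite directions.

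Mitosis genes were at low levels and rose with ethylene, 16 of 19 tested, with 1 lower (median 2.17). With the library labelled replicate 2 kept, 13 of the 17 tested rose. In water 12 rose and 1 fell (median 1.39). The ethylene change was more positive than the water change for 2 members and more negative for 1. KN, the cytokinesis syntaxin KNOLLE, was at 0.925, 1.34 and 1.33 CPM with ethylene at 24 h, against 0.0456 and 0 CPM at 16 h. HIK, a kinesin of the growing cell plate, had no read at 16 h and was at least 10.6-fold higher at 24 h, at 0.573, 0.599 and 0.948 CPM. CYCB1;4, also without a read at 16 h, was at least 8.502-fold higher. CYCB1;2 had a count ratio of 17.58 (95% interval 4.62 to 149). CDKB1;1, a mitotic kinase gene, rose by 3.27. CYCB1;1, a cyclin that also responds to DNA damage, was the exception, at 1.63, 2.72 and 1.897 CPM at 24 h, against 5.97 and 5.34 CPM at 16 h, and fell by 1.44 ± 0.16 (edgeR adjusted p = 3.61e-09). Of 9 tested D-type cyclins, which drive entry into the cell cycle, 6 rose and 0 fell, with CYCD1;1 at 2.33 and CYCD3;1 at 1.74.

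Markers of differentiating tissues rose. Of 16 tested genes of epidermis and cuticle 14 rose and 1 fell (median 1.67), or 14 and 0 with the library labelled replicate 2, against 14 and 0 in water. CER1 (AT1G02205), an enzyme of cuticular wax alkanes, was at 55.04, 61.9 and 57.9 CPM with ethylene at 24 h, against 0.912 and 1.08 CPM with ethylene at 16 h. Its groups were far apart (log2 change 5.86 ± 0.21, edgeR adjusted p = 1.10e-18). PDF1, an epidermal marker, was at 347, 368 and 341 CPM at 24 h, against 44.8 and 48.5 CPM at 16 h. LCR, a hydroxylase of cutin synthesis, rose by 3.77 with ethylene and 1.199 in water, and GPAT8, also of cutin synthesis, by 4.79.

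Of 11 tested genes of vascular cells 8 rose and 1 fell with ethylene, with a median of 4.02, or 3.76 with members at 0 set to their bound. In water 8 rose and 0 fell, with medians of 2.52 and 1.23. The ethylene change was more positive than the water change for 2 members and more negative for 1. XCP2, a protease of xylem vessels, had no read with ethylene at 16 h. It was at least 80.2-fold higher with ethylene at 24 h, at 4.89, 5.48 and 5.64 CPM. MYB46, a switch for secondary walls, was at least 13.6-fold higher. The secondary wall cellulose synthase gene CESA4 had a count ratio of 157 (95% interval 27.9 to 6235), and XCP1 one of 101 (27.8 to 841). SEOR1, a phloem sieve element gene, was at 89.4, 85.6 and 90.9 CPM at 24 h, against 19.6 and 18.7 CPM at 16 h. SUC2, the sucrose loader of phloem companion cells, was called lower at -0.36, and with the library labelled replicate 2 kept no member of the list was called lower.

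The root hair list had a median of 1.15 with ethylene and the root tip list one of 0.30. Of its 19 genes for root hairs or the patterning of the root epidermis, 11 in the root hair list did not pass the filter. Of the 8 tested 7 rose and 0 fell, with LRX2 at 2.06 and WER, a patterning gene, at 1.48. RHD6, which starts root hair growth, was at 13.2, 11.9 and 13.8 CPM with ethylene at 24 h, against 11.99 and 11.5 CPM at 16 h, and was not called (edgeR adjusted p = 0.227). Among 8 tested root tip genes 5 rose and 1 fell, none by 2-fold, and 3 rose without ethylene 16 h replicate 1, at a threshold of 0.01 or with library size alone. SHR rose by 0.74 and the stem cell factor gene PLT2 fell by 0.63, a call that was lost with the library labelled replicate 2 (edgeR adjusted p = 0.299). Of 8 stomatal lineage genes 3 rose and 0 fell (2 and 0 without ethylene 24 h replicate 3), near the 36.4% higher of all genes. EPF1 rose by 2.004, and the guard cell factor FAMA, at 0.749, 0.691 and 0.711 CPM at 24 h, against 0.638 and 0.56 CPM at 16 h, was not called.

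Genes listed for the tissues around the embryo moved in both directions. Of 5 tested endosperm markers 3 rose and 2 fell with ethylene, against 2 and 3 in water. Among all genes 36.4% rose and 32.5% fell with ethylene. The ethylene change of the markers was more positive than the water change for 2 and more negative for 1. EPR1, an extensin-like gene of the micropylar endosperm, was at 669, 841 and 656 CPM with ethylene at 24 h, against 2197 and 1948 CPM at 16 h. It fell by 1.52, while the sucrose transporter gene SUC5 rose by 1.79. Of 6 seed coat genes 4 did not pass the filter, and the mucilage genes MUM4 and MUM2 rose by 2.15 and 3.19. Both are also expressed outside the seed coat, so these 2 genes do not mark it alone. Whether changing shares of tissues take part in the results above was not tested.

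Low-oxygen genes, which serve fermentation and sugar use when oxygen is short, mostly rose. Of 13 tested, 11 rose and 2 fell with ethylene (median 1.89), while in water 8 rose and 2 fell (median 0.50). ADH1 (AT1G77120), alcohol dehydrogenase, was at 266, 303 and 299 CPM with ethylene at 24 h, against 29.2 and 28.04 CPM with ethylene at 16 h. The groups lay far apart, and ADH1 rose by 3.34 ± 0.08 (edgeR adjusted p = 4.89e-23). In water it was at 53.3, 54.2 and 58.7 CPM at 24 h, against 39.1, 47.01 and 49.3 CPM at 16 h. PDC1, pyruvate decarboxylase, was at 113, 112 and 102 CPM at 24 h, against 28.6 and 30.2 CPM at 16 h, and its change was 1.89 with ethylene and 0.51 in water. The haemoglobin gene HB1, the transcription factor gene LBD41 and the sucrose synthase gene SUS4 rose by 2.36, 1.48 and 6.98. SAD6 rose by 4.304 with ethylene and 4.602 in water. SUS4 was at 11.5, 12.5 and 11.997 CPM with ethylene at 24 h and 0.693, 1.07 and 0.902 CPM in water at 24 h, and no water 16 h library had a read. For 5 of the 13 genes the ethylene change was more positive than the water change, and for 1 more negative. PDC2 fell by 0.83 and HRE1 by 0.76.

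Of 11 tested heat shock genes 4 were lower and 1 was higher, and the share lower was near the 32.5% of all genes. HSP17.4 was at 5.905, 3.595 and 2.04 CPM with ethylene at 24 h, against 25.9 and 18.1 CPM at 16 h, and HSFA9, the heat factor of maturing seeds, at 0.0881, 0.0922 and 0 CPM, against 0.547 and 0.517 CPM. Their log2 changes were -2.496 and -2.99. With the library labelled replicate 2 kept 7 fell and 1 rose. Among 11 genes of reactive oxygen chemistry 6 rose and 3 fell. The ascorbate peroxidase gene APX1 was at 314, 324 and 332 CPM at 24 h, against 67.5 and 71.1 CPM at 16 h, and the iron superoxide dismutase gene FSD1 rose by 2.304. The catalase gene CAT3 fell by 0.82 and CAT2 rose by 0.33.

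Nitrate genes showed 1 library apart. NIA1, nitrate reductase, was at 122, 129 and 45.7 CPM with ethylene at 24 h, against 95.5 and 92.1 CPM at 16 h, and NIR1, nitrite reductase, at 112, 113 and 51.9 CPM, against 74.8 and 75.8 CPM. Replicate 3 at 24 h lay below the 16 h libraries and the other replicates above them, and neither gene was called. Without replicate 3 NIA1 rose by 0.42 (edgeR adjusted p = 8.34e-04) and NIR1 by 0.58 (edgeR adjusted p = 1.32e-06). In all, 1 of 8 tested nitrate genes rose and 1 fell, or 3 and 1 without that library. NIA2 rose by 3.17, and the transporter gene NRT2.5 fell, at a count ratio of 16 h over 24 h of 15.96 (95% interval 3.92 to 139.99).

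Of 11 tested phenylpropanoid and flavonoid genes 7 rose and 1 fell, or 3 and 2 when the library labelled replicate 2 was kept. C4H, early in the pathway, was at 78.3, 82.6 and 79.5 CPM with ethylene at 24 h, against 52.4 and 49.4 CPM at 16 h, and rose by 0.65 with ethylene and fell in water by 0.15. PAL4 fell by 2.12 and 4CL1 rose by 0.96. Flavonoid genes stayed low, with TT4, chalcone synthase, at 0.617, 1.15 and 0.664 CPM at 24 h, against 0.228 and 0.258 CPM at 16 h. Among 15 tested auxin genes 11 rose and 2 fell (median 1.36). The efflux carrier gene PIN2 was at 76.3, 75.5 and 79.8 CPM at 24 h, against 18.196 and 18.95 CPM at 16 h, and the repressor gene IAA19 rose by 3.14. In water 11 auxin genes rose and 2 fell (median 1.03). The ethylene change was more positive than the water change for 0 of them and more negative for 3.

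The 12 largest increases among genes whose log2 CPM averaged at least 3 lay between 5.12 and 7.43 on the log2 scale. ENODL9 (AT3G20570), an early nodulin-like protein gene, was at 15.996, 15.3 and 18.1 CPM with ethylene at 24 h, against 0.0912 and 0.0861 CPM with ethylene at 16 h. ENODL9 and XTH17 each had 4 reads in all with ethylene at 16 h, so the size of their folds is uncertain. BXL1, a beta-xylosidase gene, was at 164, 193 and 187 CPM at 24 h, against 2.92 and 3.83 CPM at 16 h. XTH17, EXT3, an extensin gene, and UCC2, a uclacyanin gene, belong with BXL1 to genes of the cell wall or the cell surface. EXT3 rose by 5.93 and UCC2 by 5.43. GulLO5, an oxidase gene, the glycosyl hydrolase genes BGLU21 and BGLU22, and ADS4, a fatty acid desaturase gene, rose by 6.18, 6.04, 5.65 and 5.12. BGLU21 and BGLU22 are neighbouring copies whose reads may be shared. PRK, CER1 and CYP707A1 are described above. All 12 were also called higher in water at 24 h, with CYP707A1 at 1.996 and CER1 at 5.45.

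Of the 12 largest decreases, 8 are on the reserve, oil body and late embryogenesis lists or carry that annotation: M10, LEA, ECP31, ECP63, EM1, OLEO1, PAP85 and CRA1. The other 4 were GSTF3, a glutathione transferase gene, AtMT4b, a seed metallothionein gene, HVA22B, a gene whose relatives abscisic acid induces, and GLYI8, a glyoxalase I gene. GSTF3 was at 2.34, 1.98 and 2.94 CPM with ethylene at 24 h, against 35.2 and 28.6 CPM with ethylene at 16 h. HVA22B was at 5.42, 4.19 and 6.64 CPM at 24 h, against 68.4 and 59.997 CPM at 16 h. No 24 h library came near a 16 h library for either gene. The log2 changes of AtMT4b and GLYI8 were -3.58 and -3.38. In water the 12 genes changed by -0.52 for M10 to 0.47 for CRA1.

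The difference between the ethylene and the water change was most positive for SNG1 and most negative for FLA9 among genes whose log2 CPM averaged at least 3. SNG1 (AT2G22990), which makes sinapoylmalate, was at 25.4, 26.9 and 27.9 CPM with ethylene at 24 h, against 3.47 and 3.32 CPM with ethylene at 16 h. In water it was at 3.46, 3.69 and 2.92 CPM at 24 h, against 3.397, 3.55 and 4.49 CPM at 16 h, so both water groups overlapped and lay at the ethylene 16 h level. The difference for SNG1 was 3.17 ± 0.19 (edgeR adjusted p = 8.20e-14). ADH1, ANNAT1, an annexin gene, LCR, WNK3, a kinase gene, and ChiC, a chitinase gene, followed at 3.04, 2.98, 2.57, 2.29 and 2.28. ANNAT1 was at 16.9, 16.1 and 20.7 CPM with ethylene at 24 h, against 3.92 and 2.71 CPM at 16 h, and at 15.9, 15.2 and 14.5 CPM in water at 24 h, against 20.7, 21.3 and 24.1 CPM in water at 16 h. Its ethylene 24 h level thus lay near the water 24 h level, and the 16 h level below it. ANNAT1 and ChiC lost the call of the difference, and of the ethylene change, with the library labelled replicate 2 (edgeR adjusted p = 0.141 and 0.263).

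FLA9, a fasciclin-like arabinogalactan protein gene, was at 29.3, 31.7 and 31.96 CPM with ethylene at 24 h, against 3.51 and 4.74 CPM with ethylene at 16 h. In water it was at 8.14, 6.52 and 5.95 CPM at 24 h, against 0.0523, 0.0554 and 0 CPM at 16 h, where 1 read or none was found per library. The difference for FLA9 was -4.44 ± 0.56 (edgeR adjusted p = 3.04e-07), a fitted value that the few reads in water at 16 h leave dependent on the prior count. ATOBGM, a gene of a GTP-binding protein, had a difference of -4.06. Both genes rose with ethylene and in water. CRA1, AtMT4b, EM1 and LEA18 had differences of -3.81, -3.79, -3.61 and -3.58. These 4 fell with ethylene and rose in water.

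**Figure D5:**
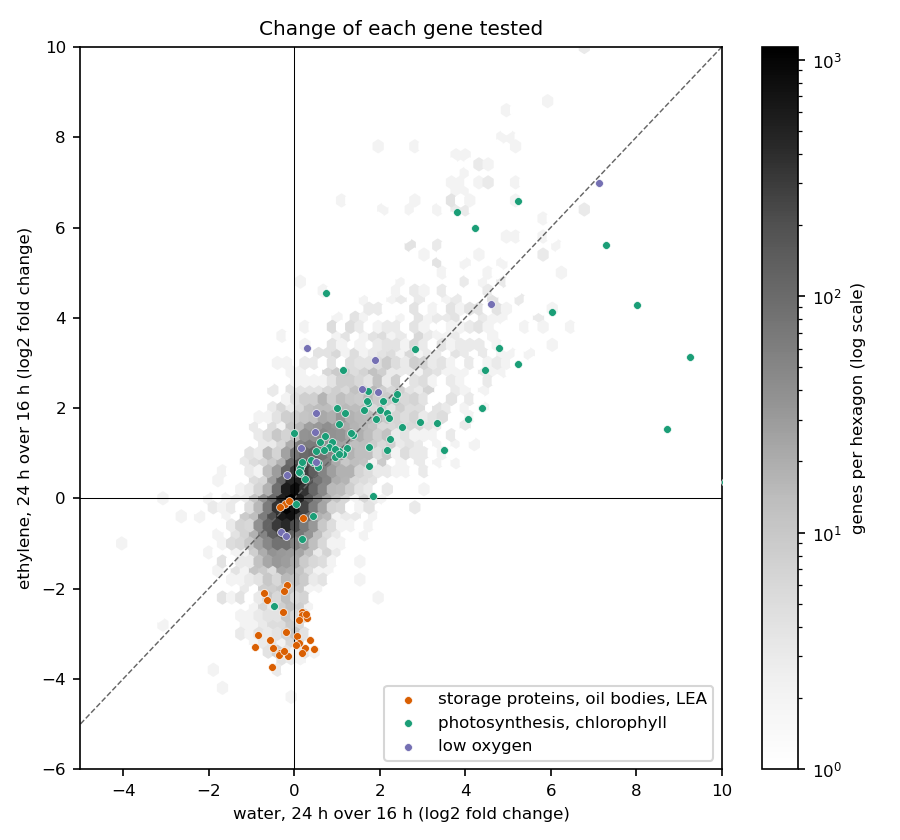
Log2 fold change from 16 to 24 h of each gene tested, in water (horizontal axis) and with ethylene (vertical axis), as hexagons shaded by the number of genes, with list members as coloured points and equal change as a dashed line; 6 genes lie outside the axes. Points of the storage, oil body and late embryogenesis lists lie below 0 on the ethylene axis, with list medians of -0.36 to 0.12 on the water axis, and ADH1 lies at 3.34 with ethylene and 0.30 in water.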

How the data were processed

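The deposited files hold read counts per gene, 1 file per library, for 37336 gene identifiers. Per the labels' protocols, the authors made stranded poly(A) libraries and sequenced single ends. Per the submitters' processing notes, the authors used STAR and the TAIR10 genome; the sources used here do not give the STAR version or the annotation. Of each file the count column for reads on the reverse strand was taken, without the 4 lines of unassigned reads, and 96.99 to 97.45% of the reads in the compared libraries lay on genes. STAR counts no read that maps to several places, so near-identical copies are undercounted. Symbols came from a TAIR10.1 gene table, in which 37051 identifiers matched, and no coordinates, promoters or protein sequences were used.

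All 17 imbibed libraries without the one labelled ethylene 16 h replicate 2 entered 1 edgeR 4.0.16 quasi-likelihood fit (R 4.3.3, TMM scaling), which left 11 residual degrees of freedom. Genes passed edgeR's filterByExpr with a minimum count of 10 and a minimum total of 15. Contrasts were 24 h against 16 h with ethylene, the same in water, their difference, and 16 h against 6 h with ethylene. Calls used a Benjamini-Hochberg adjusted p under 0.05 over all 19091 genes, standard errors came from the fold change and its F statistic, and the exact interval of a count ratio covers counting error only. Where a group had no read, the fold is a bound against 3 counts over that group. The code was tested on simulated data.

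Named genes were the 12 largest changes in each direction, and the 6 largest differences, among called genes that had a symbol and whose log2 CPM averaged at least 3. Up to 4 called members of each list were also named, with a set of well-known germination genes. Other list members in the text were chosen after their values were seen, and some named by the rule are not reported here. The members and lists were chosen with earlier results of these data known. Alternatives covered the library labelled replicate 2, scaling, the filter, DESeq2 1.42.0, the libraries fitted, the replicate block, an adjusted p of 0.01 and leaving out each replicate. The list counts without water 24 h replicate 3 or ethylene 24 h replicate 3 were added after seeing the data. Within the imbibed groups no duplicate libraries were found, since the smallest chi-square per degree of freedom between replicates was 1.719. Pairs of libraries from different groups were not compared in this way.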

Additional observations from a re-analysis of the deposited data

Results flagged for a closer look

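The change from 16 to 24 h with ethylene differed from the change in water when the difference itself was tested in the edgeR fit at an adjusted p under 0.05. It was more positive with ethylene for 3884 genes and more negative for 3928. The values below are log2 differences, ethylene change minus water change.

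Among seed reserve, late embryogenesis and related genes the difference was negative for CRA1 (-3.81), EM6 (-3.12), OLEO1 (-3.12), EM1 (-3.61), LEA18 (-3.58) and AtMT4b (-3.79). Among genes of the seed hormones it was negative for ABI5 (-1.67), DOG1 (-3.47), GA3OX1 (-1.19), GA3OX2 (-1.94), RGL2 (-0.36), ETR2 (-0.63), ERF1 (-4.46) and ACO1 (-2.29). ERF1 was at 4.51 and 4.57 CPM with ethylene at 16 h and under 1 CPM in each library of the other 3 groups. For DOG1 and GA3OX1 the change with ethylene rests on few reads or on 1 low library, as given in the report.

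It was also negative for EXPA1 (-1.12), FLA9 (-4.44) and ATOBGM (-4.06), 3 genes of the cell wall, the cell surface or GTP binding. Positive differences were found for EXPA2 (0.55), RHD6 (0.51), ICL (0.71), SNG1 (3.17), ADH1 (3.04), ANNAT1 (2.98), LCR (2.57), WNK3 (2.29) and ChiC (2.28). For RHD6 neither change alone was called, and only their difference passed the test. ANNAT1, ChiC, FLA9 and ATOBGM lost their calls with the library labelled ethylene 16 h replicate 2 kept.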

How the results depend on the processing

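Keeping the library labelled ethylene 16 h replicate 2 gave 1589 genes at least 2-fold lower at 24 h in place of 931, and 2197 genes with a more positive change with ethylene in place of 3884. It also turned the log2 changes of AFP1 to -0.25, GA3OX1 to 0.26 and ETR2 to 0.31, and it ended 18 of 171 calls of named changes and differences, those of AFP1 and ETR2 included. LHCB1.1, with 2 reads at 24 h and 1 read at 16 h with ethylene, had -0.42 without ethylene 16 h replicate 1 and 2.48 without replicate 3. Leaving out each library gave 6230 to 6669 genes higher and 5458 to 5919 lower, 2745 to 2924 and 872 to 941 past 2-fold, and differences of 3079 to 3760 more positive and 3258 to 3894 more negative. RLE scaling gave 7184 higher and 5919 lower, library size alone 6250 and 7035, DESeq2 6685 and 5536, and the compared libraries alone 6566 and 6576. The median of all genes was 0.025 with TMM, 0.047 with RLE and -0.041 with library size alone. Correlations of deviations over all pairs were -0.0978 to 0.0866 for equal replicate numbers and -0.104 to 0.13 for other numbers. Between ethylene 16 and 24 h they were 0.0205 and 0.0345 for equal numbers, and -0.0345 to 0.0141 for others. The deviations of the 2 libraries at 16 h mirror each other, so these values cannot decide whether the numbers mark pairs. With the replicate number as a block 6835 genes were higher and 6147 lower, 2808 and 925 past 2-fold, and the differences numbered 3746 and 3865. Low reads limit LHCB1.1, DOG1, CP12-2 and the vascular and mitosis genes, and at 16 h they limit the fold size of ENODL9 and XTH17. The cause of the changes named here was not tested.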
